A study of Mus musculus with 6 samples.

Results

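Cytochrome c oxidase, complex IV of the mitochondrial respiratory chain, passes electrons from cytochrome c to oxygen. Its catalytic core is encoded by mitochondrial DNA and is surrounded by small subunits encoded in the nucleus. Several of these small subunits exist in a widely expressed form and in a second form made mainly in heart and skeletal muscle, or one favoured when oxygen is low. The genes described here are the isoform genes of 5 subunits. Chosen by symbol, all 10 were found among the 46095 genes of the deposited table. The heart and muscle forms are Cox6a2, Cox7a1 and Cox8b, of which Cox7a1 and Cox8b are also known from brown fat. Their widely expressed partners are Cox6a1, Cox7a2 and Cox8a. Cox4i2 is the form of subunit 4 known from lung and from low oxygen, with Cox4i1 as its common partner. Ndufa4l2, a target of hypoxia-inducible factors, is paired with Ndufa4, which was first assigned to complex I and is now counted as a complex IV subunit.

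RNA came from 3T3-L1 cells, a line of mouse fibroblasts able to become fat cells when induced, labelled as adipocytes and taken 8 days after differentiation. The untreated group and the group given 0.125 μg/mL of Smilax glabra flavonoids had 3 samples each, and the groups shared the cell line and the time. Smilax glabra is a vine used in traditional medicine. No label says whether the samples of a group were separate cultures, so the spread between them may be technical. Of 10 markers of mature adipocytes, 5 stayed below 1 FPKM in all 6 libraries, Adipoq and Plin1 among them, while Fabp4, Lpl, Pparg, Cebpa and Lipe were present. The comparison is of treated with untreated cells.

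Values are FPKM, fragments scaled to transcript length and to library size. Levels of different genes are set side by side with caution. The fragment counter is not named, and some genes that every cell uses are listed at 0. The numbers of fragments, recovered from the values, totalled 21952064 to 26355863 per library. The genes were chosen with results of this comparison known, the increase of Cox6a2 among them. Their changes are therefore given as a description, with fitted log2 changes and standard errors (SE) but no p-value.

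The promoters of the Cox7a and Cox8 pairs are printed here because the common form was abundant and the muscle form close to or at 0, and because both partners are in the RefSeq table. The sequences are RefSeq's on GRCm38.p6, 250 bases up to the annotated start, 5′ to 3′ on the gene's strand, with CG dinucleotides in capitals. The windows are chr19:7217617-7217866 (minus strand) for Cox8a, chr7:140900447-140900696 (minus strand) for Cox8b, chr9:79759854-79760103 (minus strand) for Cox7a2 and chr7:30183921-30184170 (plus strand) for Cox7a1.
Cox8a: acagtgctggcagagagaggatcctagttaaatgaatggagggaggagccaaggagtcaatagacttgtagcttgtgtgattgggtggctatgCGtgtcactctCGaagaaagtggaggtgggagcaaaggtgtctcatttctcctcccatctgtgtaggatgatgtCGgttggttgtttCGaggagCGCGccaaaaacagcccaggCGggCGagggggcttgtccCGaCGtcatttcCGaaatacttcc
Cox8b: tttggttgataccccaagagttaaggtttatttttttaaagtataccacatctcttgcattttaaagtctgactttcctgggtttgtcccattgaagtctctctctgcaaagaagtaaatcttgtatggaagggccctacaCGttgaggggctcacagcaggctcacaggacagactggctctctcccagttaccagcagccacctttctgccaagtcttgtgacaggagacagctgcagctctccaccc
Cox7a2: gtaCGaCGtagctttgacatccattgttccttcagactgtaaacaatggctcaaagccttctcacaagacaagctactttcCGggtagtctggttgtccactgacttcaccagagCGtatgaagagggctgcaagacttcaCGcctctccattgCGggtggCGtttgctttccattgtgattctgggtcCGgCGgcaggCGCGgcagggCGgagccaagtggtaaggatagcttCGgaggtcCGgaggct
Cox7a1: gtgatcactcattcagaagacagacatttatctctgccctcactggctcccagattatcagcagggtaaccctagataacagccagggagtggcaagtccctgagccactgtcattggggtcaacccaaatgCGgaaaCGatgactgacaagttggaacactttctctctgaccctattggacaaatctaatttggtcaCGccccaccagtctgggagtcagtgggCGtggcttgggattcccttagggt
Cox8a holds 11 CG dinucleotides and Cox8b 1, and Cox7a2 holds 14 and Cox7a1 4. The other common forms in the RefSeq table, Cox6a1 and Ndufa4, hold 26 and 10. The median over 32851 promoters of this length is 6, and 37.8% of them hold at least 10. Core motifs of factors known from respiratory genes or from muscle were searched on both strands in the 6 windows that RefSeq's table gave. The palindromic core bound by NRF1 (nuclear respiratory factor) starts 162 bases before the Cox6a1 start and is found in 0.782% of all promoters. CCGGAAG, a core of ETS factors such as GABP, starts 16 bases before the same start and is found in 6.91%. CAGCTG, an E-box form used by muscle transcription factors, occurs once in the window of Cox8b, 19 bases before the start, and in 13.0% of all promoters. TATAAA was in none of the 6 windows and in 12.4% of all promoters. These matches describe the letters only. Entries for Cox6a2, Cox4i1, Cox4i2 and Ndufa4l2 were missing from that table.

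The cells expressed the common forms at high levels and the tissue forms at low ones. Cox4i1 was the most abundant at 1313 ± 315 FPKM in untreated and 1451 ± 31.1 FPKM in treated cells (SD, n = 3 per group), and its mean ranked 33 among the 22235 genes above 0. Cox6a1 followed at 600.2 ± 117 and 621 ± 15.8 FPKM. Cox8a measured 435 ± 87.4 and 498 ± 43.7 FPKM. Ndufa4 measured 328 ± 94.0 and 373 ± 61.7 FPKM, and Cox7a2 109 ± 32.8 and 105 ± 5.81 FPKM. This order held in 6 of 6 libraries. The ranges over the 6 libraries overlapped between Cox6a1 and Cox8a and between Cox8a and Ndufa4, but not between Cox4i1 and Cox6a1 or between Ndufa4 and Cox7a2.

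Next in order came Cox6a2 and Ndufa4l2, whose places differed between the groups. Ndufa4l2 was above Cox6a2 in 3 of 3 untreated libraries and below it in 3 of 3 treated ones. Cox7a1, Cox4i2 and Cox8b stayed under a mean of 1 FPKM, the minimum for the test, so 7 of the 10 genes were tested. The 5 tissue and hypoxia forms together made up 0.376% to 0.447% of the FPKM of all 10 genes in untreated cells and 0.704% to 0.816% in treated cells. In untreated and treated cells, mean Cox6a2 was 4.30 and 20.2 FPKM, while mean Ndufa4l2 was 6.80 and 2.25 FPKM. The larger sum is therefore no rise of these forms as a class.

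**Figure D1:**
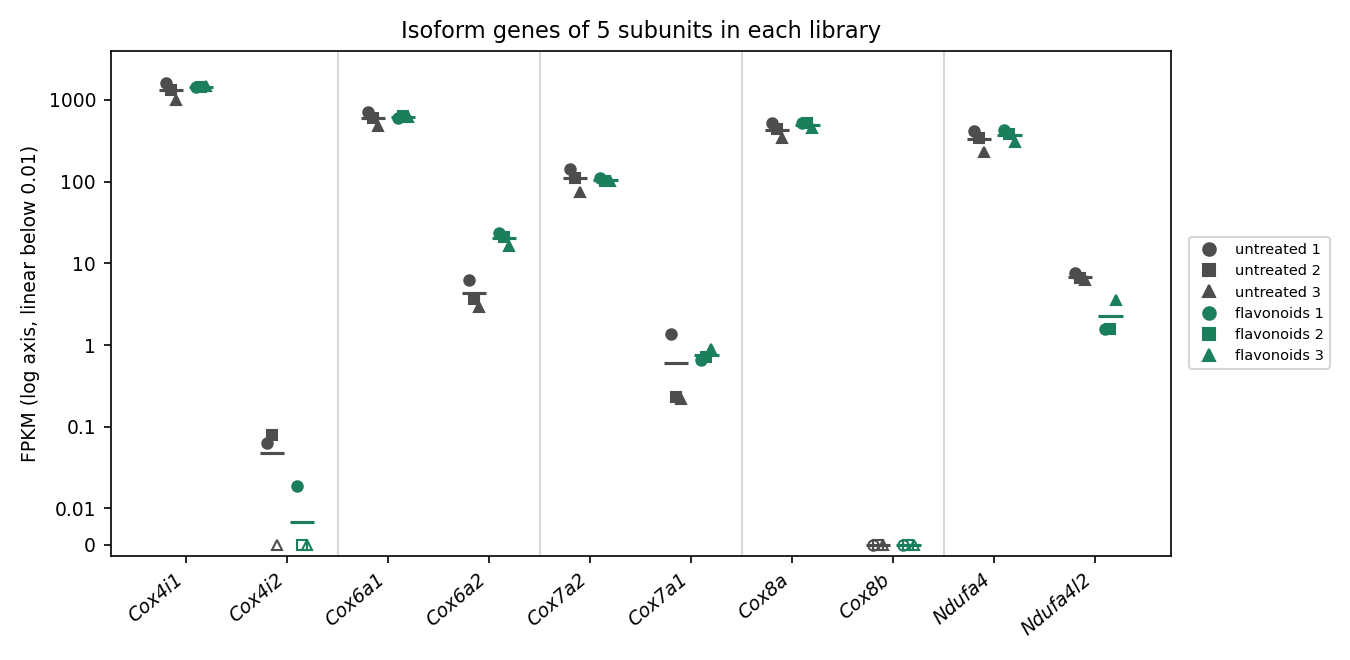
FPKM of the 10 isoform genes in each of the 6 libraries on a log axis that is linear below 0.01, with untreated libraries in grey, flavonoids in green, a short line at each group mean and open symbols at 0. The common forms lie between 75.4 and 1628 FPKM, and Cox6a2 and Ndufa4l2 are the genes whose groups lie apart.

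Cox6a2 encodes the heart and muscle form of subunit 6a, a small membrane subunit known to take part in the regulation of the enzyme. Its levels were 6.32, 3.70 and 2.88 FPKM in untreated replicates 1, 2 and 3. In treated replicates 1, 2 and 3 they were 23.2, 20.998 and 16.5 FPKM. All treated libraries were above all untreated ones. These levels rest on 92, 57 and 48 fragments in untreated libraries and on 383, 367 and 269 in treated ones. The mean was 4.71-fold higher with flavonoids, a fitted log2 change of 2.04 (SE 0.23) on log2(FPKM + 1), and 1.45 with a pseudocount of 5. In bulk RNA, a larger number of cells with the transcript and more of it per cell cannot be told apart. Cox6a2 lies on chromosome 7 at 128205435 to 128206387 (GENCODE M21 on GRCm38, as are the other gene positions), on the minus strand. It shares 70 of its 680 exon bases with Itgad on the opposite strand, and Itgad is listed at 0 in all 6 libraries.

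The common partner Cox6a1 measured 718, 597 and 485 FPKM in untreated and 609, 639 and 614 FPKM in treated libraries, and the groups overlapped. Its log2 change was 0.07 (SE 0.17). As a share of the summed FPKM of both forms, Cox6a2 made up 0.872%, 0.615% and 0.591% in untreated cells. In treated cells it made up 3.67%, 3.18% and 2.61%. The share was thus 0.693% ± 0.156 and 3.16% ± 0.529 (SD, n = 3 per group), 4.56-fold larger with flavonoids and without overlap. Cox6a1 was still 30.7-fold above Cox6a2 in treated cells, against 139.6-fold in untreated cells (ratios of mean FPKM). Within a library, the log2 difference between the partners changed by 1.97 (SE 0.18).

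Cox7a1, the heart and muscle form of subunit 7a that is also used as a mark of brown fat, was too low to be tested. It measured 1.36, 0.234 and 0.216 FPKM in untreated and 0.655, 0.721 and 0.882 FPKM in treated libraries. Untreated replicate 1 was the highest of the 6 and the other two untreated libraries the lowest, so the groups overlapped. The fragments behind these values were 11, 2 and 2 in untreated and 6, 7 and 8 in treated cells, and differences of this size are not resolved at this depth. Cox7a2 measured 141, 112 and 75.4 FPKM in untreated and 112, 102 and 102 FPKM in treated libraries, with overlap and a log2 change of -0.01 (SE 0.21). Cox7a1 made up 0.484% ± 0.411 of the pair in untreated and 0.716% ± 0.140 in treated cells (SD, n = 3 per group).

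Cox8b, the heart and muscle form of the smallest subunit, was listed at 0 in all 6 libraries. Its common partner Cox8a measured 518, 442 and 344 FPKM in untreated and 521, 526 and 448 FPKM in treated libraries. The groups overlapped, and the log2 change was 0.21 (SE 0.17). The ribosomal protein gene Rps28 and the complex I subunit gene Ndufa7, which every cell uses, are also listed at 0 in all 6 libraries, so a 0 is reported only as listed. Of the 20 protein-coding neighbours of Cox8b, 9 reached a mean of 1 FPKM.

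Markers of striated muscle were low in both groups. Of 17 such genes 8 were listed at 0 throughout, among them the myosin heavy chain genes Myh1, Myh2, Myh4, Myh6 and Myh7, the creatine kinase gene Ckm and the Z-disc gene Actn2. Their summed level was 10.4 to 14.3 FPKM in untreated and 6.68 to 7.73 FPKM in treated cells, most of it from the intermediate filament gene Des, at 7.12 ± 1.05 and 5.41 ± 0.450 FPKM (SD, n = 3 per group). Tnnt2, a troponin gene of the heart, fell from 2.04 ± 0.559 to 0.883 ± 0.248 FPKM (limma adjusted p = 0.0479), 1 of 2 markers tested, where 9.99% of all tested genes were called. The Tnnt2 call was lost in 10 of 15 other settings, with adjusted p from 0.00945 to 0.177 over them. Of 6 brown or beige fat markers, Ucp1, Dio2 and Prdm16 were listed at 0. The summed level of the 6 was 0.446 to 1.12 FPKM in untreated and 1.13 to 1.96 FPKM in treated cells, nearly all of it from Ppargc1a.

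**Figure D2:**
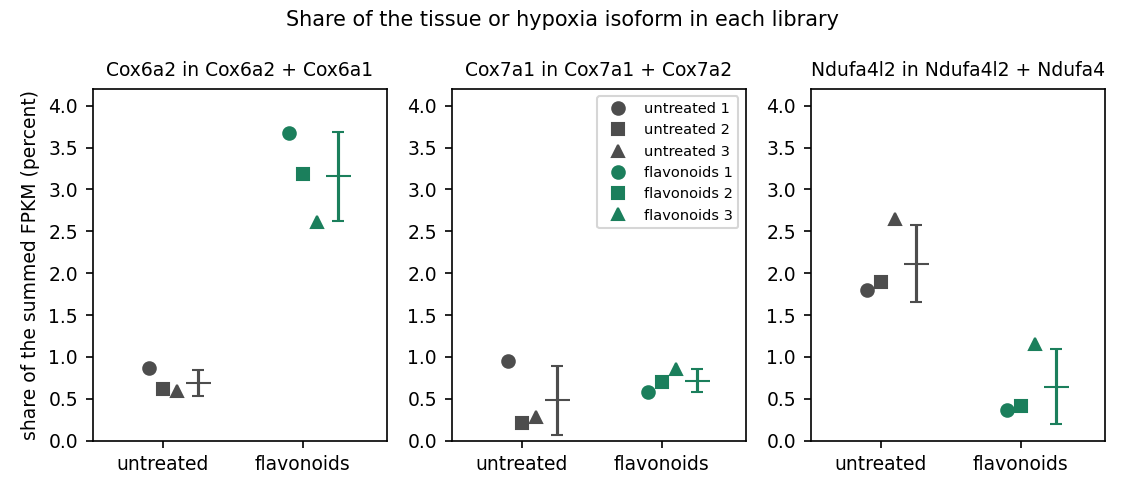
Share of Cox6a2, Cox7a1 and Ndufa4l2 in the summed FPKM of both forms of the subunit, in percent, for each library (symbols by replicate), with the group mean and SD beside them. The Cox6a2 share is 0.591% to 0.872% in untreated and 2.61% to 3.67% in treated libraries, the Cox7a1 shares overlap, and the Ndufa4l2 share is lower in all treated libraries.

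Ndufa4l2, the hypoxia-inducible relative of Ndufa4 that is known to lower the activity of the respiratory chain, went the other way. It measured 7.62, 6.58 and 6.21 FPKM in untreated replicates 1, 2 and 3. In treated replicates 1, 2 and 3 it measured 1.58, 1.57 and 3.61 FPKM. All treated values were below all untreated ones, with treated replicate 3 closest to them. The fragments were 162, 148 and 151 in untreated and 38, 40 and 86 in treated libraries. The mean was 3.02-fold lower with flavonoids, a fitted log2 change of -1.32 (SE 0.23). That change was -0.71 with a pseudocount of 5 and -1.70 with voom on fragments. Ndufa4l2 lies on chromosome 10 at 127514967 to 127517154 and shares 32 of its 1095 exon bases with Shmt2 on the opposite strand. Shmt2, a mitochondrial serine hydroxymethyltransferase gene, differed in the opposite direction, at 91.6 ± 6.07 and 189 ± 20.1 FPKM (SD, n = 3 per group). The part of such overlapping reads in these values was not tested.

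Its partner Ndufa4 measured 415, 340 and 229 FPKM in untreated and 430, 381 and 307 FPKM in treated libraries, with overlapping groups and a log2 change of 0.21 (SE 0.23). The share of Ndufa4l2 in the pair was 1.80%, 1.90% and 2.65% in untreated and 0.366%, 0.410% and 1.16% in treated cells. The groups did not overlap, at 2.12% ± 0.463 and 0.645% ± 0.446 (SD, n = 3 per group). Within a library, the log2 difference between the partners changed by -1.53 (SE 0.45).

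Cox4i2, the other form linked to low oxygen, was near 0. It was listed at 0.0632, 0.0795 and 0 FPKM in untreated and 0.0186, 0 and 0 FPKM in treated libraries, from 3, 4 and 0 and from 1, 0 and 0 fragments. No difference can be read from so few fragments. Cox4i1 measured 1628, 1313 and 998 FPKM in untreated and 1423, 1446 and 1484 FPKM in treated libraries. Untreated cells thus held both the highest and the lowest value, and the log2 change was 0.17 (SE 0.20). Cox4i1 lies on chromosome 8 at 120668222 to 120674207 and shares 154 of 1550 annotated exon bases with Emc8, which reached at most 22.1 FPKM.

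In the fit across all genes, 2 of the 7 tested isoform genes were called, Cox6a2 higher and Ndufa4l2 lower, where 9.99% of 11464 tested genes were called (limma, Benjamini-Hochberg adjusted p under 0.05). The same 2 genes had groups that did not overlap, against 34.3% of all tested genes. Nothing is read from these counts, since the genes were chosen with this comparison known. Cox6a2 was called in all 16 other settings tried, which reuse the same libraries and so are no independent evidence. Ndufa4l2 was called in 12 of 15 and not without a filter on low values, without untreated replicate 2 or without flavonoids replicate 1.

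The common forms varied together between libraries of 1 group. All 5 were highest of their group in untreated replicate 1 and lowest of the 6 libraries in untreated replicate 3. Their coefficient of variation was 19.5% to 30.0% among untreated and 2.14% to 16.6% among treated libraries. These are short transcripts, and short transcripts as a class shifted in the same way. For 1471 genes with an implied length under 1000 bases, the median deviation from each gene's own mean was 0.26, -0.01 and -0.34 in untreated replicates 1, 2 and 3 on the log2 scale. It was 0.08, 0.06 and -0.03 in treated replicates 1, 2 and 3. The median over the 5 common forms was 0.25, -0.02 and -0.45 in untreated and 0.08, 0.08 and -0.04 in treated libraries. The 3675 genes of 4000 bases or more deviated the other way in the untreated libraries, by -0.16, 0.05 and 0.27. In treated libraries their median was 0.008, -0.005 and -0.12, in the same direction as the short genes in replicates 1 and 3.

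With each library's trend over length removed, the log2 changes of Cox4i1, Cox6a1, Cox7a2, Cox8a and Ndufa4 were 0.12, 0.003, -0.06, 0.15 and 0.15, with SEs of 0.076 to 0.11. None of the 5 was called there, although the share of all genes called was 21.9%. Cox6a2 and Ndufa4l2 had changes of 1.98 (SE 0.14) and -1.35 (SE 0.22) in that fit. Leaving out untreated replicate 3 moved the 5 common forms to between -0.26 and 0.05, and leaving out untreated replicate 1 to between 0.19 and 0.40. The sign of Cox4i1, Cox6a1, Cox7a2 and Ndufa4 differed between these fits, and Cox8a stayed positive at 0.05 and 0.35. Beyond these fits, the part of the length shift in the levels was not tested.

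**Figure D3:**
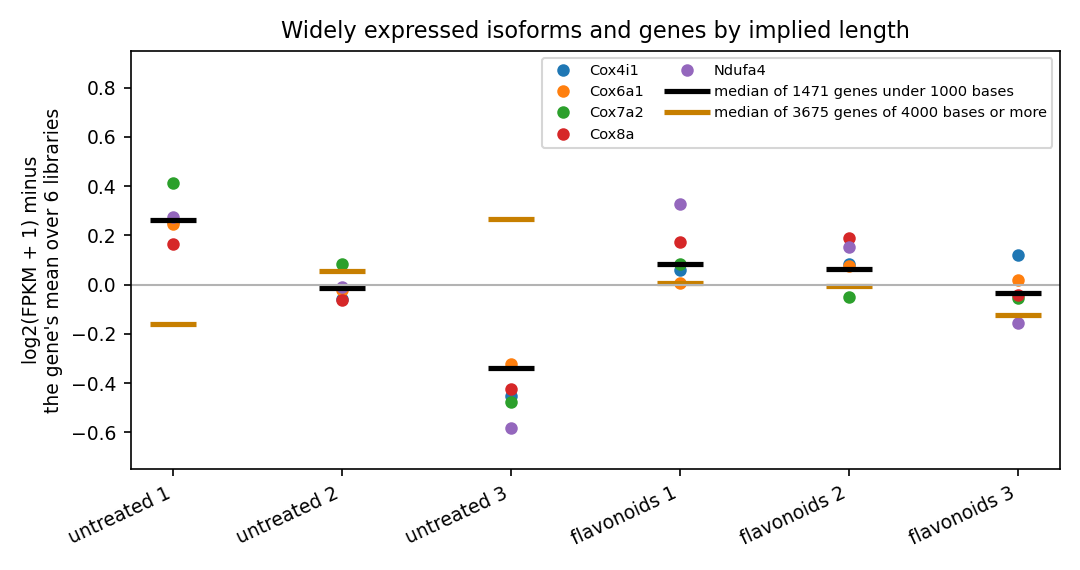
Deviation of log2(FPKM + 1) from each gene's mean over the 6 libraries, for the 5 common forms (points) and as the median of 1471 genes under 1000 bases (black bars) and of 3675 genes of 4000 bases or more (orange bars). The black bars lie at 0.26 in untreated replicate 1 and -0.34 in untreated replicate 3, where the median of the points is 0.25 and -0.45.

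Over all 6 libraries and among untreated ones, ratios to Cox4i1 within a library varied less than the levels, and among treated libraries they varied more. For the 4 other common forms, the coefficient of variation among untreated libraries was 4.06% to 7.21% for the ratio and 19.5% to 30.0% for FPKM. Among treated libraries it was 3.29% to 18.6% for the ratio and 2.54% to 16.6% for FPKM. Relative to Cox4i1 in the same library, Cox6a1 was at 41.3% to 48.6%, with a coefficient of variation of 5.56% over 6 libraries against 12.4% for its FPKM. Cox8a was at 30.2% to 36.6% of Cox4i1, Ndufa4 at 20.7% to 30.2% and Cox7a2 at 6.84% to 8.65%. Cox6a1 stood at 46.1% ± 2.28 of Cox4i1 in untreated and 42.8% ± 1.41 in treated cells (SD, n = 3 per group). Lowest for Ndufa4 was treated replicate 3 and highest treated replicate 1, so this ratio spread most among treated cells.

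None of the other structural subunits changed by the test. Of 13 genes, 10 reached the minimum and 0 were called by limma, where 9.99% of all tested genes were called, with 1 at an unadjusted p under 0.05 and 0 called by voom on recovered fragments. All 10 estimates were positive, from 0.02 to 0.61 with a median of 0.16. Over all tested genes the median was -0.02, and 5432 of 11464 estimates were positive. The 10 signs share the same libraries and are not independent of each other. Genes with an implied length under 1000 bases had a median of 0.07. With the length trend removed, the median of the list was 0.097 and that over all tested genes 0.015. Cox5a, Cox5b, Cox6b1 and Cox6c, common nuclear subunits, measured 138 ± 34.2, 224 ± 53.6, 481 ± 116 and 248 ± 76.1 FPKM in untreated cells (SD, n = 3 per group). The respective treated levels were 149 ± 5.89, 261 ± 13.4, 517 ± 20.4 and 255 ± 20.6 FPKM. As for the common forms, untreated replicate 3 was the lowest of the 6 libraries for each of these genes. Cox6b1, for example, measured 593, 489 and 362 FPKM in untreated and 499, 539 and 513 FPKM in treated libraries. The small positive estimates of these genes thus depend on that library. Cox7a2l, a relative of subunit 7a known to join complexes III and IV, measured 234 ± 65.5 and 274 ± 12.8 FPKM. Without untreated replicate 1 it was the subunit gene called.

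The mitochondrially encoded subunit COX1, the catalytic core, was at 584, 673 and 770 FPKM in untreated and 1124, 1030.5 and 539 FPKM in treated libraries. Treated replicate 3 held the lowest value of all 6, so the groups overlapped. COX3, another core subunit, was listed far lower, at 3.31 ± 0.214 and 5.89 ± 2.43 FPKM, and was the subunit gene called without flavonoids replicate 3. COX2 was also low, at 8.31 ± 1.28 FPKM in untreated and 9.65 ± 3.70 FPKM in treated cells (SD, n = 3 per group). The part of read counting in this gap to COX1 was not tested. The testis forms Cox6b2 and Cox8c were listed at 0.

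Of 28 genes that assemble or regulate the complex, 25 were tested, with 4 higher and 1 lower. Over all tested genes 4.86% were higher and 5.13% lower, and the median log2 change of the list was 0.16 against -0.02. With the length trend removed, these medians were 0.135 and 0.015. Sco2, a copper chaperone for the core, rose from 0.805 ± 0.332 to 2.58 ± 0.516 FPKM (log2 change 0.997, limma adjusted p = 0.0149). Cox18, which inserts a core subunit into the membrane, rose from 6.40 ± 0.726 to 9.69 ± 0.679 FPKM (limma adjusted p = 0.0358). Cox10, an enzyme of heme A synthesis, rose from 3.59 ± 0.160 to 5.55 ± 0.689 FPKM (limma adjusted p = 0.0479). Lrpprc, a stabiliser of mitochondrial messenger RNA, rose from 10.4 ± 0.462 to 15.7 ± 2.66 FPKM (limma adjusted p = 0.0482). Higd1a, a hypoxia-induced protein that binds the complex, fell from 28.1 ± 7.30 to 16.5 ± 0.703 FPKM (limma adjusted p = 0.0462). Surf1, another assembly factor, measured 45.9 ± 10.1 and 50.3 ± 0.492 FPKM and was not called (SD, n = 3 per group throughout). Over the other settings, the call was lost for Sco2 in 4 of 15, for Cox10 in 9 of 15, and for Cox18, Higd1a and Lrpprc in 9, 8 and 7 of 16. The count of 5 fell to 0 without untreated replicate 2 or flavonoids replicate 1 and to 1 without flavonoids replicate 2 or 3, and was 11 with the length trend removed.

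**Figure D4:**
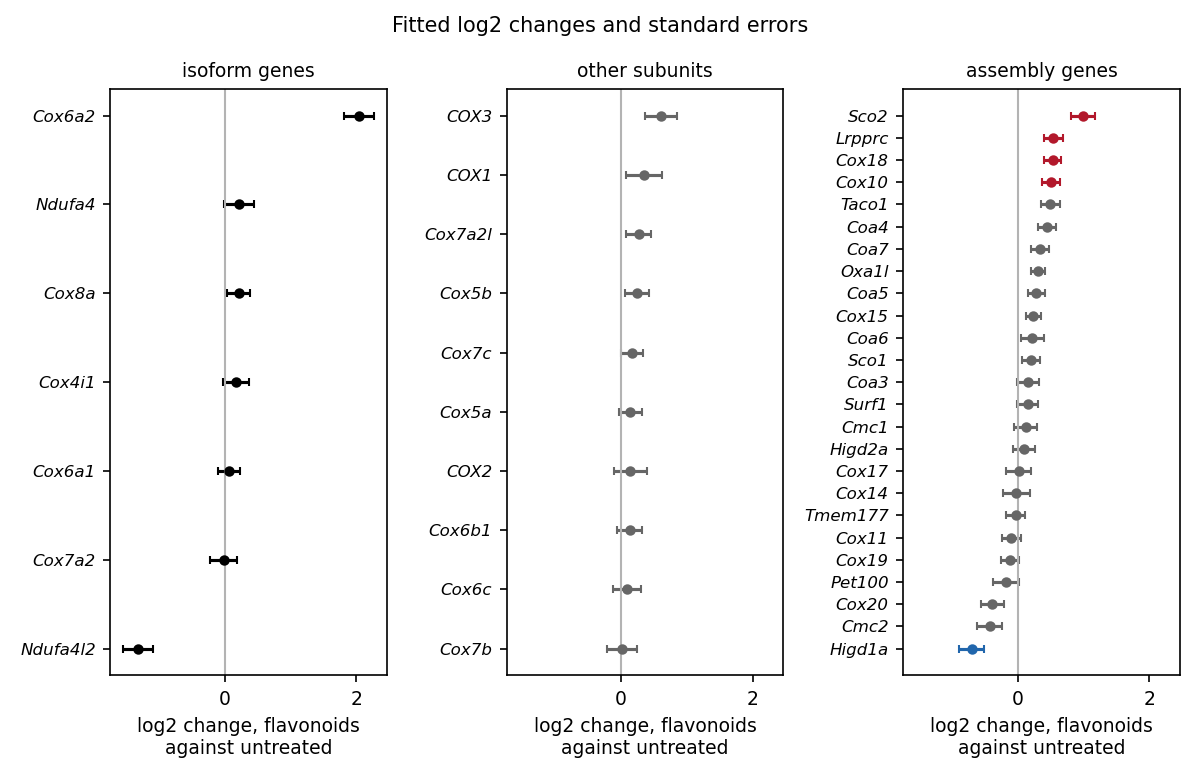
Fitted log2 changes between flavonoids and untreated (points) with 1 SE (bars) for the 7 tested isoform genes in black, 10 other subunit genes and 25 assembly genes, with red for called higher, blue for called lower and grey for not called. Cox6a2 is at 2.04 and Ndufa4l2 at -1.32, and the other 2 lists run from -0.70 to 0.997. Nothing is read from this difference, since the isoform genes were chosen with this comparison known.

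Heart and muscle forms of other energy genes were compared in 8 pairs. Of the 8 genes taken as muscle forms, Cpt1b, Ckmt2, Ckm, Pgam2 and Atp2a1 stayed under 1 FPKM in all libraries. None of the 3 tested was called higher. Slc25a4, the heart and muscle adenine nucleotide carrier, was at 937 ± 209 and 902 ± 81.2 FPKM (log2 change -0.03), above its common relative Slc25a5 at 97.6 ± 22.6 and 145 ± 5.01 FPKM (SD, n = 3 per group). Pfkm, the muscle phosphofructokinase, fell from 62.6 ± 0.966 to 45.5 ± 6.14 FPKM (limma adjusted p = 0.049958), and its liver-type relative Pfkl fell from 87.0 ± 11.5 to 59.4 ± 7.77 FPKM (limma adjusted p = 0.0489). Eno3, the muscle enolase, ran from 0.290 to 4.55 FPKM over the 6 libraries, both in treated cells, and its common relative Eno1 measured 109 ± 25.1 and 74.8 ± 10.2 FPKM. Among the genes set as partners of the muscle forms, Atp2a2, a calcium pump, rose from 50.3 ± 8.37 to 78.6 ± 4.12 FPKM (limma adjusted p = 0.0225). Pgam1, phosphoglycerate mutase, fell from 34.7 ± 4.16 to 24.1 ± 1.34 FPKM (limma adjusted p = 0.0380). Cpt1a, the common carnitine palmitoyltransferase, measured 27.0 ± 5.41 and 38.9 ± 2.92 FPKM and was not called. Ckb and Ckmt1, the remaining common forms, were at or near 0. Of the 16 genes 9 were tested and 4 called, 1 higher and 3 lower, where 9.99% of all tested genes were called. The calls of Atp2a2, Pgam1, Pfkm and Pfkl were lost in 7, 6, 9 and 10 of 16 other settings. All 4 were lost without untreated replicate 2, flavonoids replicate 1 or flavonoids replicate 2, and the count was 1 without flavonoids replicate 3 and 7 without untreated replicate 3.

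Of 22 regulators linked to these isoform genes, 14 were tested, with 1 higher and 1 lower, where 9.99% of all tested genes were called, so the count is near the background. Lonp1, a mitochondrial protease known to degrade the Cox4i1 protein in low oxygen, was 122 ± 3.49 FPKM without and 230 ± 19.3 FPKM with flavonoids (SD, n = 3 per group), a rise called by limma (adjusted p = 0.0044). Cxxc5, a repressor of Cox4i2, fell from 20.6 ± 0.941 to 13.7 ± 1.74 FPKM (limma adjusted p = 0.0266), a call lost without a filter on low values, with the replicate number as a block, and without untreated replicate 2, flavonoids replicate 1 or flavonoids replicate 2. Chchd2 and Rbpj, activators of Cox4i2, measured 265 ± 78.9 and 9.56 ± 1.47 FPKM in untreated and 326 ± 15.7 and 10.4 ± 1.93 FPKM in treated cells and were not called. The muscle regulators Myod1, Myf5, Myf6 and Mef2c were listed at 0, and Mef2a and Mef2d were not called. Ppargc1a, a coactivator of mitochondrial genes, was at 0.7001 ± 0.337 and 1.65 ± 0.482 FPKM (limma adjusted p = 0.0840). Hif1a and Epas1, oxygen-regulated subunits of the hypoxia-inducible factors, were not called (limma adjusted p = 0.643 and 0.679).

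Many other hypoxia-inducible genes were lower with flavonoids, as Ndufa4l2 was. Of 24 listed genes 23 were tested, and 14 were lower and 1 higher, where 5.13% of all tested genes were lower and 4.86% higher, with a median log2 change of -0.70 against -0.02 over all tested genes. This list overlaps genes already known to be lower in these samples and is no independent evidence. Higd1a is in both this list and the assembly list, so its lower call is counted in both. Egln3, an oxygen-sensing hydroxylase, fell by 1.71 on the log2 scale and Bnip3, a mitophagy receptor, fell by 1.38 (limma adjusted p = 0.001555 and 0.00328). Pdk1, Egln1 and P4ha1 fell by 0.91, 0.84 and 0.80. Bhlhe40 rose by 0.64 (limma adjusted p = 0.0102), and Vegfa, at 52.1 ± 6.76 and 60.7 ± 9.99 FPKM (SD, n = 3 per group), was not called. The 15 calls fell to 5, 8 and 9 without untreated replicate 2, flavonoids replicate 1 and flavonoids replicate 2.

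Genes with a pattern most like Cox6a2 over the 6 libraries were Sod2, Serp1, Ctsk, Gadd45a and Nradd, with Pearson r of 0.9997, 0.997, 0.997, 0.997 and 0.996 on log2(FPKM + 1). Sod2 encodes the manganese superoxide dismutase of mitochondria and measured 20.8 ± 2.88 and 35.3 ± 2.09 FPKM. Gadd45a, a stress-induced gene, measured 50.5 ± 7.56 and 127 ± 14.5 FPKM (SD, n = 3 per group). Among the 7293 candidates, all averaging 5 FPKM or more, 251 had an r over 0.95, so such values were common. For Ndufa4l2 the nearest were Cxxc5, Sertad3, Rarg, Tpm3-rs7 and Efemp2, with r of 0.994, 0.993, 0.992, 0.991 and 0.989, and 97 of 7294 genes had an r over 0.95. The libraries share the group difference and, for treated replicate 3, a value nearer to the untreated ones.

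Annotated transcripts were searched for near-identical copies of the isoform genes. At 90% identity over at least 100 bases, 1 other annotated gene matched Cox6a1, with 496 bases, and it is not above 0 in the table. For Ndufa4 there were 3 matches, of which 1 was above 0, reaching at most 0.333 FPKM. Reads shared with such copies were not measured. For Cox4i1 the match was the overlap with Emc8. No other annotated gene matched Cox6a2, Cox7a1, Cox7a2, Cox8a, Cox8b, Cox4i2 or Ndufa4l2, and no isoform gene matched another at that identity.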

How the data were processed

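Messenger RNA was profiled in 6 samples, 3 untreated and 3 flavonoid-treated. The values analysed are FPKM, in 1 table deposited by the authors, with each sample in its own column. Per the labels' protocols, TRIzol was used for extraction and a TruSeq RNA kit for the libraries. The tools named per the submitters' processing notes are FastQC and HISAT2, with build mm10. The sources used here name no fragment counter, annotation or strand setting.

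Log2(FPKM + 1) values were fitted in R 4.3.3 by limma 3.58.1 with its trend option, over the 11464 genes averaging 1 FPKM or more. The two-sided p-values were adjusted by Benjamini-Hochberg over all of these and a threshold of 0.05. An exact permutation test of 3 against 3 cannot go below 0.1 and was not used. Depth was taken from whole fragments solved from the FPKM steps. All 22235 genes above 0 came out whole within 0.005 fragments, and a number may be too small by a divisor shared by all libraries. A gene above 0 in only 1 library always comes out whole, so this is no check on the numbers of sparsely detected genes. The length of a gene was implied by the value of 1 fragment. Fits and recovery were tested on simulated data. Simulated fragments for the fits held no trend over length, so that test does not cover the length shift of these libraries. Transcripts were compared with blastn 2.17.0, and Python 3.11.15 with pandas 2.3.3, numpy 2.4.6 and matplotlib 3.10.9 was used for tables and figures.

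The isoform genes, the lists and the settings were chosen with earlier results of these data known. Named were all isoform genes, up to 5 called genes of smallest p in each list, all muscle pairs, and the 5 genes of highest correlation with Cox6a2 and with Ndufa4l2. Some uncalled genes were named after their values were seen. Other settings were pseudocounts of 0.1 and 5, no filter or a mean of at least 5 FPKM, TPM scale, median-ratio scaling, removal of the length trend (loess, span 0.5), voom on fragments, the replicate number as a block, and leaving out each library. The block combined with the length trend was added after seeing the data. Coa1 of the assembly list was not analysed here.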

Additional observations from a re-analysis of the deposited data

How the results depend on the processing

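The 1145 calls over all genes became 641 without a filter, 2514 with the length trend removed, 457 with the replicate block, 1996 with the block and the length trend removed, and 146 to 1709 when each library was left out. The 5 calls among assembly genes became 0 without a filter, 3 at a minimum mean of 5 FPKM, 2 on the TPM scale, 11 with the length trend removed, 3 with voom, 1 with the replicate block, 9 with the block and the length trend removed, and 0 to 5 when each library was left out. The 4 calls in the muscle pairs became 2 at a pseudocount of 0.1, 0 without a filter, 7 with the length trend removed, 0 with the replicate block, and 0 to 7 when each library was left out. The 2 regulators called became 1 without a filter and 1 with the replicate block, and 1 to 3 when each library was left out. The other subunits had 0 to 1 calls and the hypoxia list 5 to 16 when each library was left out. The Cox6a2 share rose by 2.21 to 2.73 percentage points and the Ndufa4l2 share changed by -1.73 to -1.20 over their alternatives. Since the groups did not overlap, leaving out a library could not reverse either direction. Scaling a whole library leaves a share within it unchanged, so these alternatives are no test of the direction. Of 17 called list genes followed, 5 were called in all their settings and 0 reversed. Over all tested genes, libraries with the same replicate number did not deviate together (correlations -0.14, -0.12 and -0.20), so the numbers were not taken to pair the samples. Deviations of untreated libraries carry the length shift, so this check cannot exclude a pairing. With the replicate number as a block, the SE was 0.15 for Cox6a2 (0.23 without), 0.14 for Ndufa4 (0.23) and 0.24 for Ndufa4l2 (0.23). The causes of the shifts between settings were not tested. Depth limits Cox7a1 and Cox4i2, with 36 and 8 fragments over all 6 libraries.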
